A study of Mus musculus with 8 samples.

Results

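The clock output genes of PER phase are a group of 10 genes that the circadian clock switches on together with the Per genes. They were taken as the genes named Nr1d1, Nr1d2, Dbp, Tef, Hlf, Per1, Per2, Per3, Ciart and Bhlhe41 in the processed expression values, which hold 13996 genes, and all 10 were present. Expression was measured by RNA sequencing in the brain cortex of 8 mice, 4 of them on a normal diet (normal mice) and 4 on a high fat diet (HFD mice). All were male C57BL/6 mice, and the labels name no transgene or deletion. The HFD contained 60% fat by weight and was given from the age of 8 weeks until the cortex was taken at 16 weeks, under ether, while normal mice ate a conventional diet over the same 8 weeks. The sources used here do not give the hour of killing.

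The clock of mammalian cells is a feedback loop of transcription. BMAL1 (encoded by Arntl) and CLOCK, or its relative NPAS2 in the forebrain, bind E-box sequences and activate the Per and Cry genes, whose proteins then inhibit BMAL1 and CLOCK. The same E-box activation drives Nr1d1 and Nr1d2, which encode the nuclear receptors REV-ERB alpha and REV-ERB beta that repress Arntl, and Dbp, Tef and Hlf, which encode activators that bind D-box sequences. Ciart (also called Chrono) and Bhlhe41 (also called Dec2) encode repressors of BMAL1 and CLOCK. The RNAs of these genes rise and fall over the day, with Nr1d1 and Dbp peaking earlier than Per2, and in antiphase to Arntl.

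Clock factors act through short DNA sequences, some of them close to the start of transcription. RefSeq promoter windows on GRCm38.p6, 250 bases before to 50 bases after a start, were held for 9 of the 10 genes and gave 11 windows. On both strands they were searched for the canonical E-box CACGTG, the related E-box CACGTT, the D-box TTANGTAA, the ROR and REV-ERB site TAGGTCA and the cAMP response element TGACGTCA, and no matches overlapped each other. The following stretches are shown because they hold such matches, which are in capitals. Each is written 5′ to 3′ on the strand of the gene and lies upstream of the RefSeq start.
Ciart (chr3:95882255-95882356, minus strand): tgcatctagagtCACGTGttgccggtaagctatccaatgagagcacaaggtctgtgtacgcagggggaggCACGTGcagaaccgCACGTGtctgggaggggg
Per1 (chr11:69098743-69098828, plus strand): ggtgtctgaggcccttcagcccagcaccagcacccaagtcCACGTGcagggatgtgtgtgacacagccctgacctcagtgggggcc
Tef (chr15:81811236-81811321, plus strand): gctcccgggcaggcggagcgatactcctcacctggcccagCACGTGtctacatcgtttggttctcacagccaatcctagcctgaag
Per3 (chr4:151044776-151044910, minus strand): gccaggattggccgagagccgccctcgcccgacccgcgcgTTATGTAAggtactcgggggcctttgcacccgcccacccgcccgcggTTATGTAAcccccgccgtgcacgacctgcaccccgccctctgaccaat
Nr1d1 (chr11:98775378-98775445, minus strand): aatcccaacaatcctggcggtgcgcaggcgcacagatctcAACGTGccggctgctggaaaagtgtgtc

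The canonical E-box was found for 4 of the 9 genes, Tef, Per1, Ciart and Bhlhe41. By window it was in 5 of the 11, and in 7.15% of 32851 promoter windows of the same length. Ciart held 3 copies, which began 116, 58 and 44 bases before the start. Tef held 1 copy in each of its 2 windows, and Per1 held 1 copy in 1 of its 2 windows. The D-box was found for Per3 alone, in 2 copies that began 205 and 158 bases before the start, and in 2.32% of all windows. Nr1d1 held CACGTT on the opposite strand, 28 bases before the start, as did 4.68% of all windows in either orientation. Hlf held a cAMP response element, found in 1.79% of all windows, and the site TAGGTCA, found in 2.61% of all windows, was in none of the 11. The windows of Nr1d2 and Dbp held none of the 5 sequences. A match describes the letters only, and sequence farther from the starts was not searched. In GENCODE M21 the stretches of Per1 and Tef lie in introns of these genes, upstream of internal starts, those of Per3 and Ciart in introns of Camta1 and C920021L13Rik, and that of Nr1d1 between genes.

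The label of cortex was checked against marker genes, and the mice differed in those of other brain regions. Of 10 markers of cortical projection neurons 8 were higher on the high fat diet, while 9 of 9 tested striatal markers and 10 of 10 myelin markers were lower. Expression is given as FPKM, the number of fragments scaled to the length of the transcript and to the mapped reads of the library. The summed FPKM of cerebellar markers was 42.2, 321, 430 and 124 in normal mice 1 to 4 and between 35.9 and 43.6 in HFD mice. Normal mice 2 and 3 thus stood farthest apart, and normal mouse 4 also lay above every HFD mouse. The sum of striatal markers lay between 239 and 440 in normal mice and between 79.4 and 88.9 in HFD mice. The sum of choroid plexus markers was between 495 and 974 in normal mice, between 99.8 and 157 in HFD mice 1 to 3 and 1160 in HFD mouse 4, which thus lay nearer to the normal mice. The sum of FPKM over all genes lay between 562431 and 639142, and because the values carry no read counts, the depth behind them is unknown.

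Comparison between the diets showed that 9 of the 10 clock output genes were higher in HFD mice and 0 were lower. A gene was called when its adjusted p was below 0.05 in limma, fitted on log2(FPKM + 0.1) for 13982 genes, namely those that averaged at least 1 FPKM and were never at 0, a filter that all 10 passed. Of all genes tested, 17.7% were called higher and 15.3% lower. The exception was Per1, with an unadjusted p of 0.0533 and an adjusted p of 0.118 in the limma fit. For 4 genes, Nr1d1, Dbp, Per2 and Per3, the increase was more than 50%, which 4.23% of all genes passed upward. In 8 genes all 4 HFD mice lay above all 4 normal mice, as in 17.2% of all genes, and the values of Per1 and Bhlhe41 overlapped. The median log2 fold change was 0.54 over the 10 genes and 0.0031 over all genes tested. A similar median, 0.59, was found for the 10 markers of cortical projection neurons, of which 8 were called higher, 5 of them by more than 50%. The summed FPKM of the 10 genes was between 172.6 and 201.8 in normal mice and between 271.5 and 287.7 in HFD mice. In tissue RNA, more expressing cells and more RNA per cell cannot be told apart. The RNAs of these and other clock genes change over the day, and the hour of killing is not known for either diet. A difference in that hour between the diets, if there was one, cannot be told apart from the diet.

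**Figure D1:**
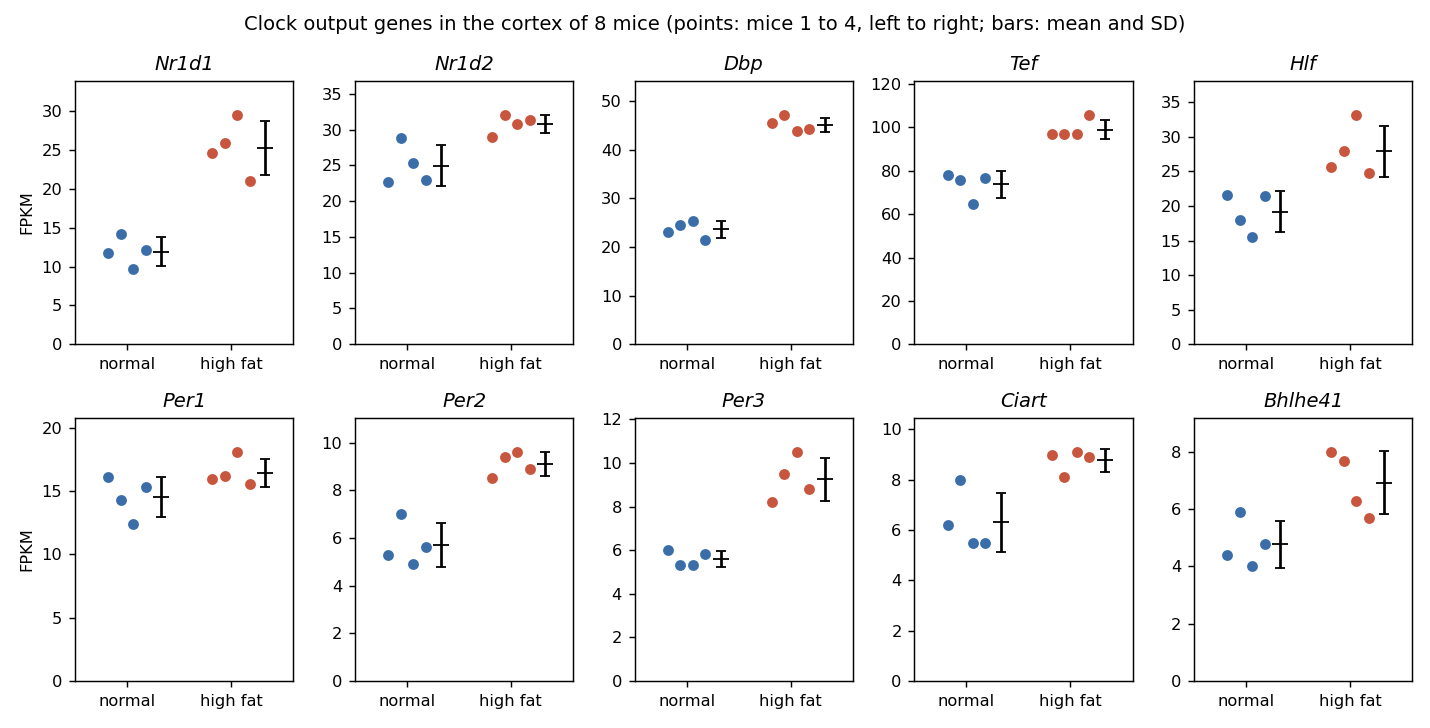
FPKM of the 10 clock output genes in each mouse, 1 panel per gene with its own axis from 0; points are mice 1 to 4 from left to right (blue, normal diet; red, high fat diet) and bars give the mean and SD of 4 mice. The diets do not overlap in 8 panels and overlap for Per1 and Bhlhe41.

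Both REV-ERB genes were higher in HFD mice. Nr1d1 (ENSMUSG00000020889.11, chromosome 11, 98767932 to 98775333 on GRCm38, minus strand) was 11.8, 14.2, 9.7 and 12.1 FPKM in normal mice 1 to 4 and 24.7, 26, 29.5 and 21.1 in HFD mice 1 to 4. Every HFD mouse was thus well above the highest normal mouse. It was 2.11-fold higher on the high fat diet and the log2 fold change was 1.08 ± 0.12 (SE), with an adjusted limma p of 0.000775, and 0.572% of all genes tested had a larger one. Nr1d2 (ENSMUSG00000021775.11, chromosome 14, 18204054 to 18239127, minus strand) was 22.7, 28.9, 25.3 and 23 FPKM in normal mice and 29, 32, 30.8 and 31.3 in HFD mice. The diets were separated by only 0.1 FPKM, the rounding of the values, between normal mouse 2 and HFD mouse 1. Its log2 fold change was 0.31 ± 0.08 (SE), with an adjusted limma p of 0.0145. Nr1d1 overlaps Thra, a thyroid hormone receptor gene on the opposite strand, by 263 bp of exons. The sources used here do not say whether the FPKM calculation used strand, and without it reads in those bases could belong to either gene. Thra was between 196.3 and 235.3 FPKM in normal mice and between 255.9 and 276 in HFD mice, a log2 difference of 0.30 at an adjusted limma p of 0.00553, and its part in the Nr1d1 values was not tested.

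Dbp, Tef and Hlf encode the PAR bZIP activators, which carry the clock signal to genes with a D-box. Dbp (ENSMUSG00000059824.12, chromosome 7, 45705088 to 45710203, plus strand) was 23.1, 24.6, 25.4 and 21.5 FPKM in normal mice and 45.5, 47.1, 43.8 and 44.3 in HFD mice. Its values were tight within each diet, and the lowest HFD mouse was far above the highest normal mouse. It was 1.91-fold higher and the log2 fold change was 0.93 ± 0.06 (SE), with an adjusted limma p of 6.68e-05, the lowest adjusted p of the 10 genes. Tef (ENSMUSG00000022389.15, chromosome 15, 81802421 to 81826863, plus strand), the gene of the group with the highest FPKM, was 78, 75.6, 64.6 and 76.8 in normal mice. In HFD mice it was 96.9, 96.9, 96.9 and 105.6, so normal mouse 3 was low and HFD mouse 4 was high within their diets. Its log2 fold change was 0.43 ± 0.06 (SE), with an adjusted limma p of 0.00182. Tef shares 193 bp of exons with Gm17597, an antisense gene that was not analysed here. Hlf (ENSMUSG00000003949.16, chromosome 11, 90336536 to 90390895, minus strand) was 21.6, 18, 15.5 and 21.5 FPKM in normal mice and 25.7, 28, 33.1 and 24.7 in HFD mice. Both diets were widely spread, without overlap, and the log2 fold change was 0.54 ± 0.12 (SE), with an adjusted limma p of 0.00929. Dbp shares 539 bp of exons with Sphk2 on the opposite strand, which was between 8.5 and 9.9 FPKM in normal mice and between 9.7 and 10.9 in HFD mice.

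The Per genes encode the PERIOD proteins, which inhibit BMAL1 and CLOCK, and Per2 and Per3 increased. Per1 (ENSMUSG00000020893.17, chromosome 11, 69095217 to 69109960, plus strand) was 16.1, 14.3, 12.4 and 15.3 FPKM in normal mice and 16, 16.2, 18.1 and 15.6 in HFD mice. Normal mouse 1 lay above 2 of the HFD mice. The log2 fold change of Per1 was 0.18 (standard error 0.08), with a 95% interval from -0.0032 to 0.37, so the interval allows an increase of up to 0.37 on the log2 scale. It was 0.11 without normal mouse 3, the lowest of all, and 0.067 without normal mice 2 and 3. Per2 (ENSMUSG00000055866.9, chromosome 1, 91415982 to 91459324, minus strand) was 5.3, 7, 4.9 and 5.6 FPKM in normal mice and 8.5, 9.4, 9.6 and 8.9 in HFD mice. Normal mouse 2 was the highest of its diet and still below every HFD mouse. It was 1.6-fold higher, and its log2 fold change was 0.68 ± 0.10 (SE), with an adjusted limma p of 0.0019. Per3 (ENSMUSG00000028957.12, chromosome 4, 151003652 to 151044665, minus strand) was 6, 5.3, 5.3 and 5.8 FPKM in normal mice and 8.2, 9.5, 10.5 and 8.8 in HFD mice. The spread of Per3 was larger on the high fat diet, and the diets did not overlap. It was 1.64-fold higher, and its log2 fold change was 0.71 ± 0.09 (SE), with an adjusted limma p of 0.000855. Per3 overlaps Camta1 on the same strand, with 0 bp of exons shared. Camta1 was between 36.5 and 51.3 FPKM in normal mice and between 42.1 and 47 in HFD mice. Its log2 difference was 0.08 at an adjusted limma p of 0.54, and its part in the Per3 values was not tested.

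The repressors Ciart and Bhlhe41 were also higher in HFD mice. Ciart (ENSMUSG00000038550.10, chromosome 3, 95878503 to 95882251, minus strand) was 6.2, 8, 5.5 and 5.5 FPKM in normal mice and 9, 8.1, 9.1 and 8.9 in HFD mice. Normal mouse 2 and HFD mouse 2 were 0.1 FPKM apart. The log2 fold change was 0.49 ± 0.11 (SE), with an adjusted limma p of 0.0112. Bhlhe41 (ENSMUSG00000030256.11, chromosome 6, 145858243 to 145865558, minus strand) was 4.4, 5.9, 4 and 4.8 FPKM in normal mice and 8, 7.7, 6.3 and 5.7 in HFD mice. HFD mouse 4 lay just below normal mouse 2. Its log2 fold change was 0.53 ± 0.14 (SE), with an adjusted limma p of 0.0187, and the call was lost without HFD mouse 1 (0.46, adjusted p = 0.0535) or mouse 2 (0.47, adjusted p = 0.0571, both from limma). In GENCODE M21, 1280 bp of Bhlhe41 exons are shared with Gm43909, a transcript on the opposite strand that was not analysed here. Among the 4 genes with a canonical E-box in the window the log2 fold changes ran from 0.18 to 0.53, and among the other 5 with a window from 0.31 to 1.08.

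The order of the mice was partly shared between the genes. Normal mouse 3 had the lowest FPKM of its diet, ties included, in 8 of the 10 genes, the exceptions being Nr1d2 and Dbp, and it had the highest Dbp. HFD mouse 3 had the highest FPKM of its diet in 6 genes, namely Nr1d1, Hlf, Per1, Per2, Per3 and Ciart, and the lowest Dbp. Normal mouse 2 was the highest in Nr1d1, Nr1d2, Per2, Ciart and Bhlhe41, and normal mouse 1 in Tef, Hlf, Per1 and Per3. The markers of cortical projection neurons had the same extremes. Their summed FPKM was 943, 684, 640 and 941 in normal mice 1 to 4 and 984, 1081, 1281 and 937 in HFD mice 1 to 4. The part of tissue composition in the order of the mice was not tested, and the share of all genes with this order was not counted.

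The size of the change was compared within families by the ratio of related genes in each mouse, taken on FPKM + 0.1. Apart from the added constant, such a ratio does not depend on the scaling between mice. The ratio of Nr1d1 to Nr1d2 was 0.386 to 0.528 in normal mice and 0.675 to 0.958 in HFD mice, a difference of 0.77 on the log2 scale. The ratio of Dbp to Tef was 0.281 to 0.394 in normal mice and 0.42 to 0.487 in HFD mice, a log2 difference of 0.50. Per2 to Per1 moved from 0.333 to 0.493 in normal mice to 0.533 to 0.583 (log2 difference 0.49), and Per3 to Per1 from 0.375 to 0.432 to 0.516 to 0.589 (log2 difference 0.53). In these 4 of 7 ratios the diets did not overlap, and the exact two-sided permutation test gave p = 0.0286 for each, the smallest that 4 against 4 mice can give. After Benjamini-Hochberg adjustment over the 7 ratios the exact p was 0.05, which is not below the threshold. Dbp to Hlf, Hlf to Tef and Per3 to Per2 overlapped between the diets, with log2 differences of 0.39, 0.11 and 0.03 and exact p of 0.114, 0.457 and 0.943. The difference for Hlf to Tef was 0.077 without normal mouse 2, 0.019 without HFD mouse 3 and 0.20 without HFD mouse 4.

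**Figure D2:**
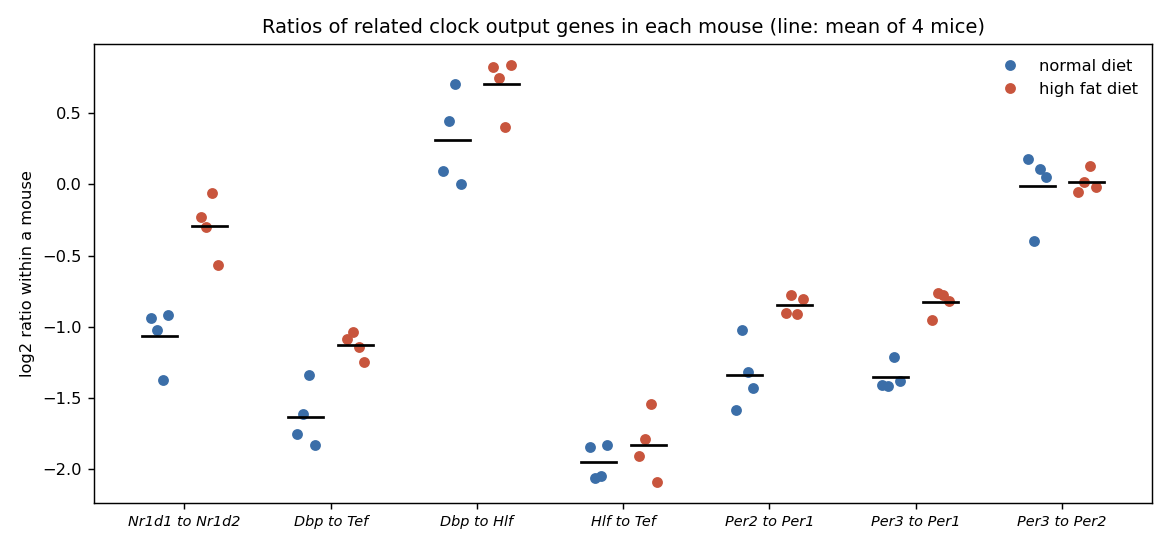
Log2 ratio of 2 related clock output genes within each mouse, on log2(FPKM + 0.1), for 7 pairs; points are mice (blue, normal diet; red, high fat diet) and lines the mean of 4 mice. The diets are separate for Nr1d1 to Nr1d2, Dbp to Tef, Per2 to Per1 and Per3 to Per1, and overlap for the other 3 pairs.

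The remaining genes of the core clock did not move in a single direction. Of 10 examined, 3 were higher, 3 were lower and 4 did not pass the adjusted threshold, with a median log2 fold change of -0.08. Arntl, which encodes BMAL1 and is repressed by REV-ERB, was lower, at 16.1 ± 0.287 FPKM in HFD mice against 19.3 ± 1.67 in normal mice (SD, n = 4), a log2 difference of -0.26 ± 0.06 (SE), with an adjusted limma p of 0.0141. Nfil3, a repressor at D-boxes that opposes Dbp, was 8.97 ± 0.263 FPKM in normal and 5.12 ± 0.793 in HFD mice, a log2 difference of -0.81 ± 0.10 (SE), with an adjusted limma p of 0.000979. Cry1, a partner of the PER proteins whose RNA peaks later than that of Per2, had a log2 fold change of -0.35 with an adjusted p of 0.0492 from limma and overlapping values. Npas2, the forebrain relative of Clock and another target of REV-ERB, increased from 6.55 ± 1.27 to 12.2 ± 1.14 FPKM, or by 0.90 ± 0.13 (SE) on the log2 scale, with an adjusted limma p of 0.00149. Cry2 and Arntl2 were higher by 0.30 and 0.48 on the log2 scale, with adjusted p of 0.00735 and 0.00639 from limma. Clock (-0.09, adjusted p = 0.134 from limma) and Bhlhe40, the relative of Bhlhe41 (-0.07, adjusted p = 0.688 from limma), did not pass, nor did Rora and Rorb, which encode activators at the REV-ERB site.

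**Figure D3:**
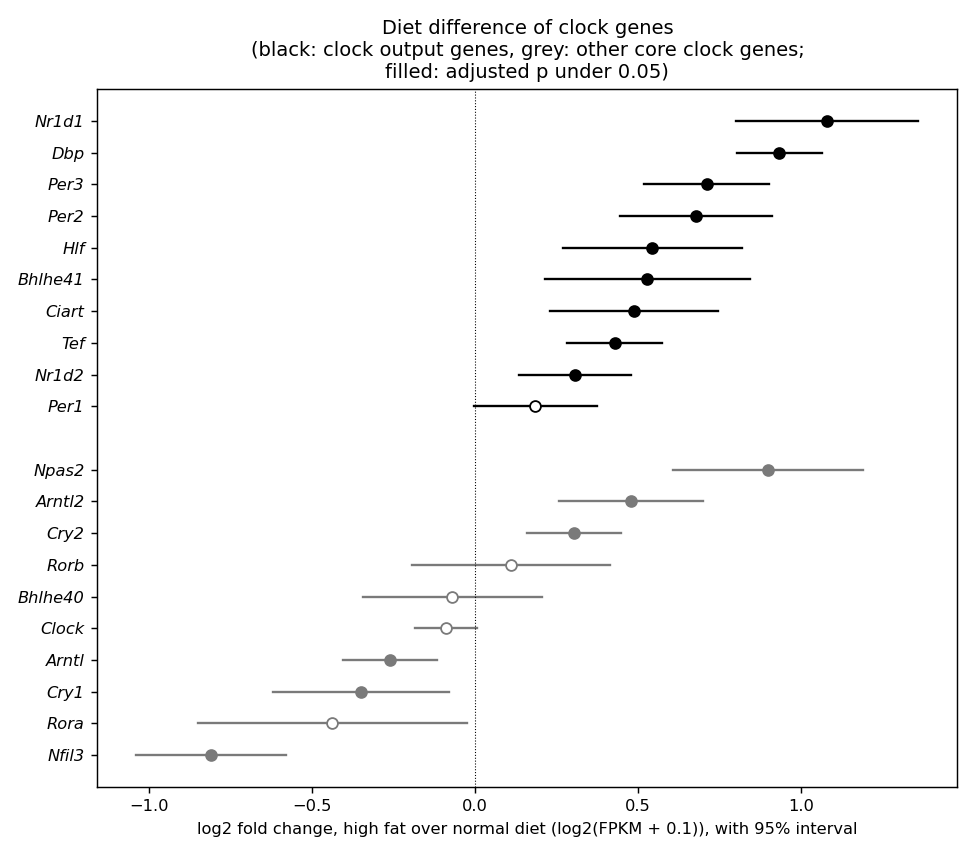
Log2 fold change of high fat over normal diet on log2(FPKM + 0.1) with its 95% interval from limma; black, the 10 clock output genes; grey, 10 other core clock genes; filled points have an adjusted p below 0.05. All 10 clock output genes lie to the right of 0, from Per1 at 0.18 to Nr1d1 at 1.08, while the other core clock genes run from Nfil3 at -0.81 to Npas2 at 0.90.

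Among 29 genes for kinases, ubiquitin ligases and cofactors that act on clock proteins, 9 were higher and 8 lower, against 17.7% and 15.3% of all genes, and 0 of them changed by more than 50%. Of 10 tested genes known as clock-controlled targets, 4 were higher and 3 lower, with a median log2 fold change of -0.18. Usp2 (0.54), Cys1 (0.63), Wee1 (0.31) and Noct (0.22) were the higher ones on the log2 scale, with adjusted p of 0.00118, 0.00799, 0.0156 and 0.0313 from limma. Fabp7, a fatty acid binding protein gene of astrocytes repressed by REV-ERB alpha, was 42.6 ± 10.8 FPKM in normal and 16.6 ± 3.62 in HFD mice, a log2 difference of -1.34 ± 0.22 (SE), with an adjusted limma p of 0.00257. In normal mice 1 to 4 Fabp7 was 26.8, 48.9, 49.9 and 44.7 FPKM, and their cerebellar sums were 42.2, 321, 430 and 124. The part of other tissue in the Fabp7 values was not tested. The other lower ones were Coq10b (-0.39, adjusted p = 0.00364) and Pdp1 (-0.32, adjusted p = 0.0338, both from limma).

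The clock output genes were also compared with the marker genes of other tissue in the same mice. Normal mouse 1, whose summed cerebellar FPKM of 42.2 lay within the range of the HFD mice, had 11.8 FPKM of Nr1d1 and 23.1 of Dbp, well below the HFD mice. Its Hlf of 21.6 FPKM was also below the HFD mice, while its Per1 of 16.1 lay within their range. The same mouse had the highest striatal sum of all, 440, and a choroid plexus sum of 908, above HFD mice 1 to 3. Its myelin sum of 3010 and thalamic sum of 87 lay above every HFD mouse. Its sums of cortical projection neuron markers (943, against 937 to 1281 in HFD mice) and astrocyte markers (1269, against 1245 to 1322) lay within the HFD range. It thus matched the HFD mice in some marker lists and not in others. In a limma fit with the cerebellar markers as a covariate 6 of the 10 genes were called higher, as were 6.36% of all genes, and the 4 that were not were Per1 (-0.0075), Hlf (0.27, adjusted p = 0.195), Ciart (0.54, adjusted p = 0.0677) and Bhlhe41 (0.58, adjusted p = 0.098). Nr1d1 was then at 1.03, Nr1d2 at 0.46, Dbp at 1.03, Tef at 0.31 (adjusted limma p of 0.0352), Per2 at 0.72 and Per3 at 0.59. Without normal mice 2 and 3, a fit chosen after seeing the data, 8 genes were called, as were 11% of all genes upward, and Hlf was at 0.36 with an adjusted p of 0.0515. That fit still held normal mouse 4, with a cerebellar sum of 124. Without HFD mouse 4, 9 genes were called higher, as were 15.3% of all genes, but the choroid plexus sums of the diets then no longer overlapped. Striatal and myelin markers differed between the diets in the same 8 mice, and neither the striatal sums nor the myelin sums of the diets overlapped (myelin, 2233 to 3663 in normal and 1540 to 2130 in HFD mice). The thalamic sums did not overlap either (87 to 228 in normal and 66 to 72.5 in HFD mice). Markers of cortical projection neurons (8 of 10 higher) and of blood (5 of 5 lower) differed as well. The part of the striatal, myelin, thalamic, cortical neuron, blood and choroid plexus markers in these results was not tested.

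**Figure D4:**
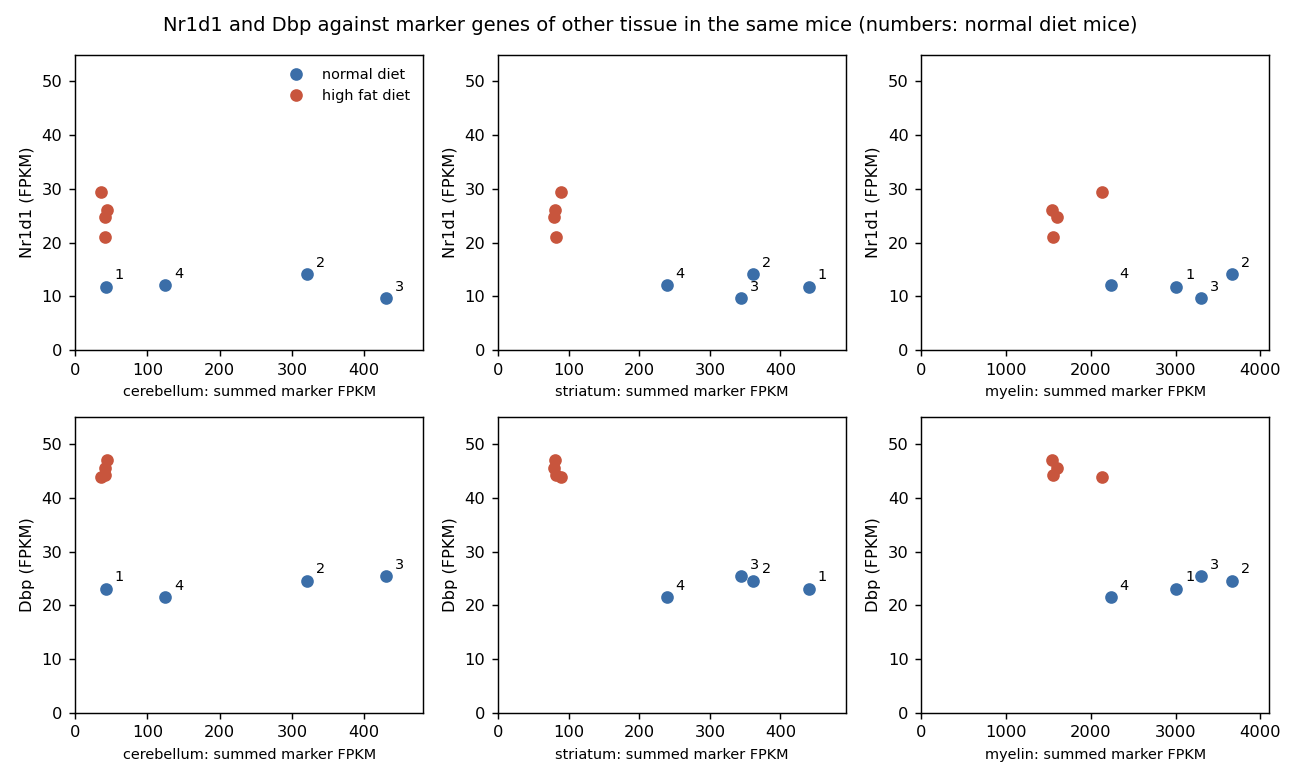
FPKM of Nr1d1 (top) and Dbp (bottom) against the summed FPKM of cerebellar, striatal and myelin markers in each mouse; blue, normal diet with the mouse number; red, high fat diet. Normal mouse 1 has a cerebellar sum of 42.2, within the 35.9 to 43.6 of the HFD mice, while the striatal sums and the myelin sums of the diets do not overlap.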

How the data were processed

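Stranded paired-end libraries were made from rRNA-depleted RNA of each cortex. After trimming (Trimmomatic) and alignment (STAR, mm10), the authors obtained FPKM with Cuffnorm and GENCODE M17 (GRCm38.p6), and the deposited FPKM values are rounded to 0.1. The sources used here give no tool versions. FPKM is scaled to depth and length, so read counts and depth are unknown. Fold changes are on the log2(FPKM + 0.1) scale, which understates those of low genes.

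The diets were compared with limma 3.58.1 in R 4.3.3 (variance trend, two-sided, Benjamini-Hochberg over 13982 genes), and ratios by exact permutation over 70 assignments with scipy 1.17.1. The fit was also run on simulated data with independent noise for each gene, which cannot speak to differences in tissue that many genes share. Coordinates come from GENCODE M21 on GRCm38, with identical identifiers for the 10 genes, and promoter sequences from RefSeq on GRCm38.p6. The genes and lists were chosen with earlier results of these data known. Nothing states that the mice were paired, and p-values measure the spread between mice.

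Every member was named, with the other clock genes past the adjusted threshold and a change of 50%, and Arntl, Clock, Npas2, Cry1, Cry2, Bhlhe40 and Nfil3 in any case. Further genes were the 2 largest changes each way of the immediate early and glucocorticoid lists, the largest change of each marker list and the 5 genes most like the members. Genes of the clock lists below a change of 50% (Arntl2, Rora, Rorb, Usp2, Wee1, Noct, Coq10b, Pdp1) were named after their values were seen. A further 2 genes of the clock lists are not reported here and were left out of the list counts.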

Additional observations from a re-analysis of the deposited data

Results flagged for a closer look

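Within the 4 mice of a diet, a value was listed when its gap to the nearest other mouse, divided by the range, exceeded the 95% critical value of Dixon's test, which chance gives in about 1 of 20 groups. This held for 5 of 54 groups tested. Tef was 105.6 FPKM in HFD mouse 4 against 96.9 in each of the other 3, a gap of 1.0 times the range. Arntl was 16.5 FPKM in HFD mouse 3 against 15.9 to 16 in the others (0.833), and Bhlhe40 was 46.2 in the same mouse against 33.3 to 35.5 (0.83). Fabp7 was 11.2 FPKM in HFD mouse 3 against 17.6 to 18.8 (0.842). The log2 ratio of Per3 to Per1 was -1.21 in normal mouse 3, above the other 3 normal mice (0.849). HFD mouse 3 thus appears in 3 of the 5 cases and also had the highest value of its diet in 6 of the 10 clock output genes.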

How the results depend on the processing

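Of 170 log2 fold changes of the 10 clock output genes, under 17 alternatives to the limma fit, 163 kept their direction and their side of the threshold, 6 no longer passed it and 1 reversed. The reversal was Per1, at -0.0075 (adjusted p = 0.965) with the cerebellar markers as a covariate. In that fit 1607 genes of the whole transcriptome were called in place of 4626, and 2736 without normal mice 2 and 3, where fewer mice remained; the cause of the drop under the covariate was not tested. Leaving out 1 mouse at a time gave between 3292 and 4618 called genes. Between 8 and 9 clock output genes were then higher, as were 12.9% to 17.7% of all genes, and 0 were lower. Between 4 and 6 changed by over 50%, for which the share of all genes was not counted in these fits. The log2 difference in the ratio of Per3 to Per2 ran from -0.0933 to 0.097 without single mice, and changed sign without normal mouse 2 or HFD mouse 3. An added constant of 1, other filters on low FPKM, other scalings between mice and no variance trend left 9 genes higher and Per1 not called. Of all genes, 16.8% to 19.4% were higher in these fits.

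With the replicate number as a block, 3390 genes were called, and the clock output genes kept 9 increases, against 13.2% of all genes called higher. The labels do not pair the mice, and deviations of mice with the same number correlated at -0.0382, -0.0275, -0.109 and -0.0717 for numbers 1 to 4, with no mouse closest to its own number. FPKM values rounded to 0.1 limit the precision of the lowest genes, such as Bhlhe41 and Per2.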

Other observations

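Per1 also responds to neuronal activity and to glucocorticoids, and genes of both responses were measured. Of 17 immediate early genes, 1 was higher and 5 lower on the high fat diet, with a median log2 fold change of -0.02. Egr3 increased by 1.02 on the log2 scale (adjusted p = 0.00301 from limma), while Fos (-1.24, adjusted p = 0.00065) and Egr2 (-0.80, adjusted p = 0.0117, both from limma) decreased. Of 15 glucocorticoid-responsive genes, 3 were higher and 3 lower, with a median of -0.02. Plin4 (1.58, adjusted p = 0.00248 from limma) and Zbtb16 (1.11, adjusted p = 0.000459 from limma) were the largest increases, and Ddit4 (-0.51, adjusted p = 0.00627 from limma) and Cdkn1a (-0.46, adjusted p = 0.035 from limma) the largest decreases.

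Among 9628 genes outside the group with a mean FPKM of at least 5, those most like the mean of the 10 standardised clock output genes over the 8 mice were Zbtb16, Mcf2l, Mamld1, Ubap2l and Cit, with Pearson's r between 0.983 and 0.994. These values contain the difference between the diets, and are given as a description. Zbtb16, which encodes a zinc finger transcription factor, was 13.2, 14.3, 10.5 and 13.5 FPKM in normal mice and 26.3, 27.3, 32.7 and 24.9 in HFD mice, with the lowest and highest values in mouse 3 of each diet, as for Nr1d1 and Hlf.

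Of the marker lists not yet described, 0 of 9 microglial genes were called in either direction (limma), astrocyte genes were called higher in 2 and lower in 3 of 10, and endothelial genes higher in 1 and lower in 3 of 10. Thalamic genes were lower in 3 of 9, cerebellar genes in 4 of 9, choroid plexus genes in 4 of 9 and blood genes in 5 of 5, with 0 higher in each of these 4 lists. The largest change in each list was that of Adora2a (striatum), Cbln3 (cerebellum), Prkcd (thalamus), Fezf2 (cortical projection neurons) and Mog (myelin), at -4.07, -5.19, -2.37, 1.23 and -0.95 on the log2 scale. In the others it was that of Aqp4 (astrocytes, -0.88), Cldn5 (endothelium, -0.40), Alas2 (blood, -0.77), Ttr (choroid plexus, -2.85, adjusted p = 0.059 from limma) and Tmem119 (microglia, 0.27, adjusted p = 0.0614 from limma), of which Ttr and Tmem119 did not pass.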
